A study of Homo sapiens with 12 samples.

Results

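The cluster of let-7e, miR-99b and miR-125a on chromosome 19 was examined with its paralogs miR-99a, miR-100 and miR-125b in small RNA sequencing of Mono Mac 6 (MM6) cells, a human monocytic cell line. Every mature miRNA entry that carried the name of an arm of these hairpins was taken, whatever its level. This gave 9 of the 314 mature miRNA entries of the series, of which 8 of 285 were listed without LPS and 8 of 262 with LPS. The 9 entries were both arms of miR-99b, let-7e and miR-125a, and of the paralogs miR-99a-5p, miR-125b-5p and miR-125b-2-3p. No arm of miR-100 was listed in either table.

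The study compared wild-type MM6 cells with 5-LOΔ MM6 cells, in which ALOX5, the gene for 5-lipoxygenase (5-LO), was knocked out by CRISPR/Cas9 delivered with a lentivirus. The 12 libraries fell into 4 groups of 3, which were wild-type, 5-LOΔ, wild-type with LPS and 5-LOΔ with LPS. All cells, the controls included, had been differentiated for 72 h, according to the labels, in TGF-β (1 ng/mL) plus calcitriol (50 nM), and the LPS groups then received 1 µg/mL of this bacterial lipopolysaccharide for 6 h. The knockout cells were grown from single-cell clones, the labels do not name the clone behind a library, and whether the libraries came from separate cultures is not given by the labels. Any difference between the genotypes therefore cannot be told apart from a difference between clones and the parental line. The ALOX5 mRNA is not part of a small RNA library, and the genotype was therefore not checked here.

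A miRNA is cut from a hairpin whose 5p and 3p arms can each give a mature strand of about the same length. Usually 1 strand, the guide, is loaded onto an Argonaute protein and the other is degraded. Bases 2 to 8 of the guide, the seed, pair with the target mRNA, so miRNAs that share a seed are grouped as a family. Hairpins close together on a chromosome can be made from 1 primary transcript, as is known for this cluster, and each is then processed on its own. In haematopoiesis, miR-99 and miR-125 family members are known for maintaining stem and progenitor cells, and the let-7 family is known for promoting differentiation.

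The mature sequences of the guide arms are shown because they define which entries can share reads and targets. They were taken from RefSeq (table of build GRCh38.p14), in which all 9 names were found, and are written 5′ to 3′ with the seed in capitals. Each paralog follows its cluster member, and let-7a-5p, which is no member, is shown as the closest relative of let-7e-5p.
miR-99b-5p: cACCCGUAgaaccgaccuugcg
miR-99a-5p: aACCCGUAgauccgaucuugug
let-7e-5p: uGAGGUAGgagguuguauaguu
let-7a-5p: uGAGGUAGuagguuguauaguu
miR-125a-5p: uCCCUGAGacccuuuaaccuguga
miR-125b-5p: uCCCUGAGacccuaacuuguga

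The 3 cluster guides have 3 different seeds, and each seed is shared with its paralog. miR-99b-5p and miR-99a-5p are both 22 bases long and differ at 4 positions counted from the 5′ end, C1A, A11U, C16U and C21U (miR-99b-5p as reference). let-7e-5p differs from let-7a-5p at 1 position, G9U, just outside the seed. miR-125a-5p has 24 bases and miR-125b-5p 22, and their first 13 bases are the same. How reads were assigned between sequences this close is not given in the sources used here, which bears above all on let-7e-5p and its far more abundant relative let-7a-5p.

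The 4 3p arms with reads are shown because those of the cluster give the arm ratios and miR-125b-2-3p is the paralog arm with the most reads. Their seeds are shared with no other miRNA among the 262 listed names that were found in RefSeq.
miR-99b-3p: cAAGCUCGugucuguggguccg
let-7e-3p: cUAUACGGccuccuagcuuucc
miR-125a-3p: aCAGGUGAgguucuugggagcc
miR-125b-2-3p: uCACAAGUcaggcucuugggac

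In GRCh37, the build of the hg19 annotation used by the authors, the 3 cluster hairpins lie on the forward strand of chromosome 19 within 728 bp. MIR99B (chr19:52195865-52195934) is followed after 104 bp by MIRLET7E (chr19:52196039-52196117) and after a further 389 bp by MIR125A (chr19:52196507-52196592). All 3 lie in introns of 2 of the 15 annotated SPACA6 transcripts, and an exon of 1 of these 15 overlaps MIR125A. The lncRNA SPACA6-AS1 has exons opposite them on the reverse strand. The paralogs have other hosts. MIR99A (chr21:17911409-17911489) and MIR125B2 (chr21:17962557-17962645) lie 51067 bp apart on the forward strand of chromosome 21 in the lncRNA gene MIR99AHG, and the other hairpin for miR-125b-5p, MIR125B1 (chr11:121970465-121970552), lies on the reverse strand in introns of MIR100HG.

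The deposited values are 1 mean of normalized counts per genotype and table, so a mean has no SD, and no model across genes could be fitted. Since a library holds whole reads, the size factors of the libraries and, for low means, the reads in each library could be recovered. Size factors lay between 0.665 and 1.72 over the 12 libraries, and in each group they expressed 100% of the 352 to 439 means of at most 10 as whole reads. A mean of 0.868 to 1.02 is what 3 reads give, depending on the group. Counting intervals (95%) cover the sampling of reads only, and PCR copies are not independent molecules. The tables without and with LPS were normalized separately, so levels with LPS are set beside those without it and not tested against them. Ratios formed within a table are compared between the tables by counting intervals only. All 7 haematopoietic miRNAs examined, such as miR-142-3p and miR-223-3p, were above 0 in every group and made up 4.41% to 5.84% of the mature sum. Most of this was miR-21-5p and miR-155-5p (2499 and 1358 normalized counts in wild-type cells), of which miR-21-5p is not specific to the lineage, while miR-142-3p and miR-223-3p were at 97.9 and 93.8. Of 13 miRNAs of other lineages at most 1 was above 0, miR-200c-3p with 1.19 normalized counts in wild-type cells and 1.00 with LPS. Of 7 LPS-inducible miRNAs examined, miR-146a-5p was at 66.9 normalized counts without LPS and 468 with it in wild-type cells, and at 100.1 and 555 in 5-LOΔ cells. Likewise miR-146b-5p was at 1268 and 3704 in wild-type cells and at 2131 and 7241 in 5-LOΔ cells. The others did not share this pattern. miR-155-5p was at 1358 and 1360 in wild-type cells and at 1998 and 1783 in 5-LOΔ cells, miR-9-5p was at 16.2 and 19.7, and at 42.3 and 21.2, miR-132-3p and miR-147b stayed under 3 normalized counts in every group, and miR-155-3p was not listed.

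All 3 guide arms of the cluster had lower means in 5-LOΔ cells than in wild-type cells, without and with LPS. Of the 5 entries with both means above 0 in the table without LPS, 4 were at least 2-fold lower in 5-LOΔ cells, against 11.2% of the 206 mature miRNAs with both means above 0, and 1 was at least 2-fold higher, against 12.1%. With LPS, 3 of 5 were at least 2-fold lower, against 7.89% of 190, and 0 were higher, against 11.1%. Of the remaining entries without LPS, 2 were listed at 0 in 5-LOΔ cells and 1 in wild-type cells, and with LPS 3 were listed at 0 in 5-LOΔ cells. The median log2 ratio of the 5 entries was -1.46 without and -1.45 with LPS, beside 0.10 over all mature miRNAs in each table.

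**Figure D1:**
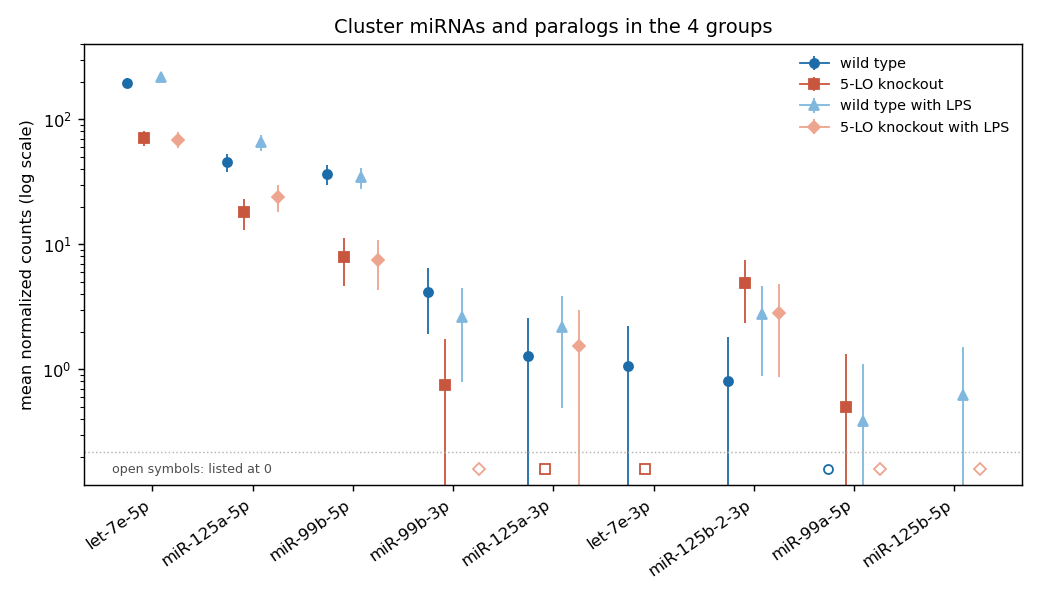
Mean normalized counts (log scale) of the 9 entries in the 4 groups, with bars for the 95% counting interval, which covers the sampling of reads only. Bars that reach the lower edge are cut there and have a lower limit near or below 0, and open symbols at the bottom mark entries listed at 0. The 3 guide arms of the cluster on the left were lower in both knockout groups, and miR-125b-2-3p, a paralog arm, was at 0.8004 in wild-type and 4.93 in knockout cells without LPS and at 2.79 and 2.85 with it.

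let-7e-5p was the most abundant entry in every group. Its mean was 197 normalized counts in wild-type cells and 71.2 in 5-LOΔ cells, and 217 and 68.8 with LPS. It ranked 35th of 285 mature miRNAs in wild-type cells and 68th in 5-LOΔ cells, and 34th and 62nd of 262 with LPS. Its share of mature miRNA counts was 0.192% in wild-type cells and 0.0628% in 5-LOΔ cells, and 0.233% and 0.0623% with LPS. With the abundant miR-3607 arms left out of the sum, the shares were 0.339% and 0.0979%, and 0.401% and 0.101% with LPS. The log2 ratio was -1.46 (95% counting interval -1.69 to -1.23) without and -1.66 (-1.89 to -1.43) with LPS. The reads of its single libraries could not be recovered in 1 way, so the overlap of its libraries is not known.

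miR-125a-5p was the next in level. Its mean was 45.5 normalized counts in wild-type cells and 18.05 in 5-LOΔ cells, and 65.4 and 24.0 with LPS. It ranked 78th and 101st without LPS, and 57th and 86th with it. The log2 ratio was -1.34 (-1.80 to -0.87) without and -1.45 (-1.85 to -1.05) with LPS.

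The 3 5-LOΔ libraries without LPS were far apart for miR-125a-5p, with 48, 12 and 4 reads, or 35.9, 12.7 and 5.52 normalized counts. For the wild-type libraries the mean allowed 2 sets of reads. In the set of 36.0, 46.3 and 54.3 normalized counts all 5-LOΔ libraries lay below, though by only a small gap, and in the set of 117, 3.94 and 15.8 the groups overlapped. With LPS, the 5-LOΔ libraries lay below in 3 of the 10 pairs of sets. Without the 5-LOΔ library of 35.9 normalized counts the log2 ratio was -2.32, and without that of 5.52 it was -0.91, which is no longer 2-fold. Whether the genotypes differ beyond the spread between libraries was thus not settled for miR-125a-5p.

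miR-99b-5p, the lowest of the 3 guides, had the largest fold difference of the 3 between the genotypes as deposited. With LPS this order turned under a pseudocount of 10, with log2 ratios of -1.34 for miR-99b-5p and -1.53 for let-7e-5p. Its mean was 36.5 normalized counts in wild-type cells and 7.88 in 5-LOΔ cells, and 34.3 and 7.55 with LPS. It ranked 81st and 120th without LPS, and 79th and 114th with it. Its reads could be recovered in 1 way in all 4 groups once the precursor entry, which counts the reads of both arms together, was used as well.

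The wild-type libraries held 40.8, 41.4 and 27.2 normalized counts of miR-99b-5p (51, 42 and 24 reads), and the 5-LOΔ libraries 13.5, 7.41 and 2.76 (18, 7 and 2 reads). Every wild-type library was above every 5-LOΔ library. With LPS, the wild-type libraries held 50.0, 21.5 and 31.6 normalized counts (86, 23 and 21 reads) and the 5-LOΔ libraries 9.23, 4.79 and 8.62 (12, 4 and 7 reads). The groups did not overlap in either table. A 2-sided exact permutation test of the difference in means gave p = 0.1 in each table, the smallest value that 3 libraries against 3 allow.

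Among mature miRNAs with both means above 0 and at most 40, all 5-LOΔ libraries lay below all wild-type libraries in 5.65% of 124 without LPS and in 3.77% of 106 with LPS. The 106 leave out 5 of 111 whose overlap depended on which set of reads was taken. miR-99b-5p was the only entry with this pattern among the 3 that this criterion covered in each table. The log2 ratio of miR-99b-5p was -2.21 (-2.87 to -1.55) without and -2.19 (-2.86 to -1.51) with LPS, a 4.63-fold and 4.55-fold lower mean. With each library left out in turn it ran from -2.84 to -1.80 without LPS, the lower end without the 5-LOΔ library of 13.5 normalized counts, and from -2.43 to -1.81 with LPS.

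**Figure D2:**
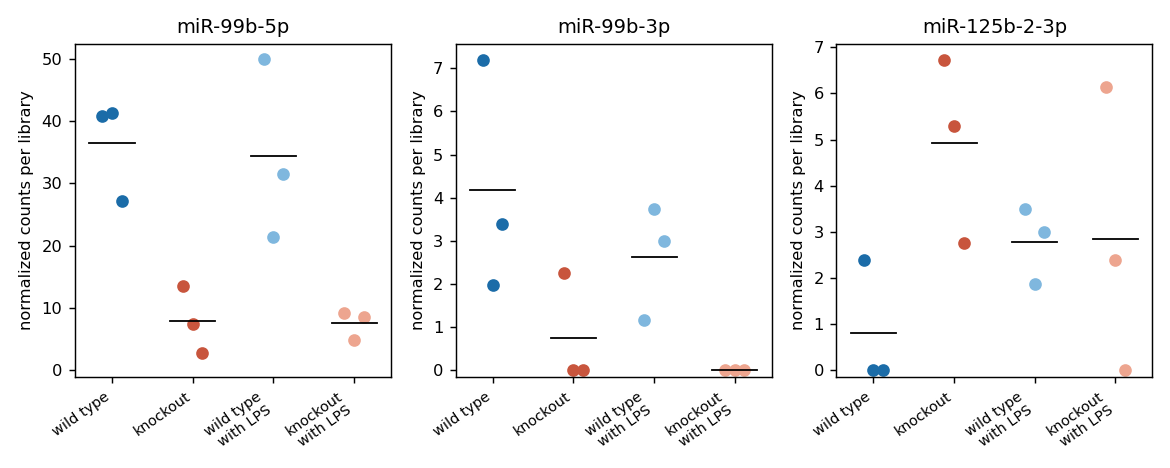
Normalized counts in each recovered library (points) and their mean (line) for miR-99b-5p, miR-99b-3p and miR-125b-2-3p in the 4 groups of 3 libraries, on linear axes from 0. The wild-type and knockout points of miR-99b-5p do not overlap without LPS (lowest wild-type 27.2, highest knockout 13.5) or with it (21.5 and 9.23). Within a group the libraries run from the largest size factor on the left to the smallest on the right and carry no replicate number.

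The low 5-LOΔ library was low for other miRNAs too. Among the 34 other mature miRNAs with a mean of 5 to 20 in 5-LOΔ cells, the library of the smallest size factor averaged 7.51 normalized counts against 12.3 and 11.5 in the others, and it was the highest of the 3 for 2 of the 34. The highest library exceeded the lowest by a median of 2.06-fold among these miRNAs, against 4.88-fold for miR-99b-5p and 6.51-fold for miR-125a-5p. A spread at least as wide was found for 4 and 1 of the 34. The part of this library in the lower means was not tested beyond leaving it out, which left miR-99b-5p at a log2 ratio of -1.80.

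The 3p arm of miR-99b was far lower in level than the guide, and its mean too was lower in 5-LOΔ cells. The wild-type libraries held 7.20, 1.97 and 3.40 normalized counts of miR-99b-3p (9, 2 and 3 reads), and of the 5-LOΔ libraries 1 held 2.25 (3 reads) and the others 0. The groups overlapped, since the highest 5-LOΔ library lay above the lowest wild-type library (exact permutation test, p = 0.2). The means of 4.19 and 0.748 gave a log2 ratio of -2.48, with an exact counting interval from -4.60 to -0.31 for the pooled reads. With LPS, the wild-type libraries held 1.16, 3.73 and 3.01 normalized counts (2, 4 and 2 reads) and the knockout mean was listed at 0, so miR-99b-3p was at least 2.59-fold lower, taking 3 reads over the group as the floor. The exact interval for the pooled reads, which allows for counting error in both groups, reached up to a log2 ratio of -0.54, a weaker bound. Without LPS, leaving out the wild-type library with 9 reads gave -1.84, and leaving out either 5-LOΔ library at 0 gave -1.90.

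The remaining 3p arms were at the limit of the depth. let-7e-3p was listed without LPS only, with 4 reads in 1 wild-type library and a knockout mean of 0. miR-125a-3p had 2, 0 and 2 reads in the wild-type libraries and a knockout mean of 0 without LPS. With LPS it had 6, 0 and 2 reads in wild-type cells and 6, 0 and 0 in 5-LOΔ cells, a log2 ratio of -0.49 (-2.25 to 1.26), which ran from -1.08 to 0.09 with each library left out. No difference was detectable for these arms at this depth. Single reads may still lie behind a mean listed at 0, because exactly 1 read in a library was found 41 times among low mature miRNAs and exactly 2 reads 346 times.

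The 5p arm was the more abundant in each of the 3 hairpins. In wild-type cells the ratio of the 5p to the 3p mean was 8.70 for miR-99b (95% counting interval 4.89 to 15.5), 35.4 for miR-125a (13.0 to 95.8) and 184 for let-7e (62.4 to 544). The intervals of let-7e and miR-99b did not overlap, while that of miR-125a overlapped both. The ratio of let-7e rests on 4 reads of let-7e-3p in 1 wild-type library, and without that library it has no value. With 1 added to both arms the ratios were 7.22 for miR-99b, 20.3 for miR-125a and 95.6 for let-7e. Among the 48 hairpins with both arms listed and a major arm of at least 10 normalized counts, the median ratio of the major to the minor arm was 33.2, so the ratio of miR-99b lay below this median and that of let-7e above it.

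No change of an arm ratio with the genotype was detectable. For miR-99b it was 10.5 (2.57 to 43.2) in 5-LOΔ cells, 13.0 (6.31 to 26.9) in wild-type cells with LPS and at least 7.41 in 5-LOΔ cells with LPS. In pooled reads, the 3p arm made up 14 of 131 miR-99b reads (10.7%, exact binomial interval 5.97% to 17.3%) in wild-type cells and 3 of 30 (2.11% to 26.5%) in 5-LOΔ cells. With LPS it made up 8 of 138 (5.80%, 2.54% to 11.1%) and 0 of 23, for which the same exact interval reaches 14.8% (13.0% if 3 reads are taken as the limit). Single wild-type libraries varied as widely, with 5p to 3p read ratios of 5.67, 21 and 8 without LPS and 43, 5.75 and 10.5 with it. For miR-125a the ratio was at least 18.1 in 5-LOΔ cells, and with LPS it was 30.2 (13.8 to 66.1) in wild-type cells and 15.6 (5.90 to 41.2) in 5-LOΔ cells. That of let-7e was at least 71.4 in 5-LOΔ cells. The precursor entry of each cluster hairpin equalled the sum of its listed arms, so the tables showed no reads at these hairpins beyond the mature arms.

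The 3 guides together made up 0.272% of all mature miRNA counts in wild-type cells and 0.0857% in 5-LOΔ cells, and 0.340% and 0.0909% with LPS. Without miR-3607 in the sum they made up 0.481% and 0.134%, and 0.585% and 0.148% with LPS. Within this sum their order was the same in all 4 groups, let-7e-5p before miR-125a-5p before miR-99b-5p. let-7e-5p took 70.6% ± 1.55 (counting SE) of it in wild-type cells and 73.3% ± 2.67 in 5-LOΔ cells, and 68.5% and 68.6% with LPS. miR-99b-5p took 13.1% ± 1.15 and 8.11% ± 1.65, and 10.8% and 7.52% with LPS. These shares depend on how well each sequence is ligated and copied during library preparation, which differs between miRNAs, and compare groups better than miRNAs.

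**Figure D3:**
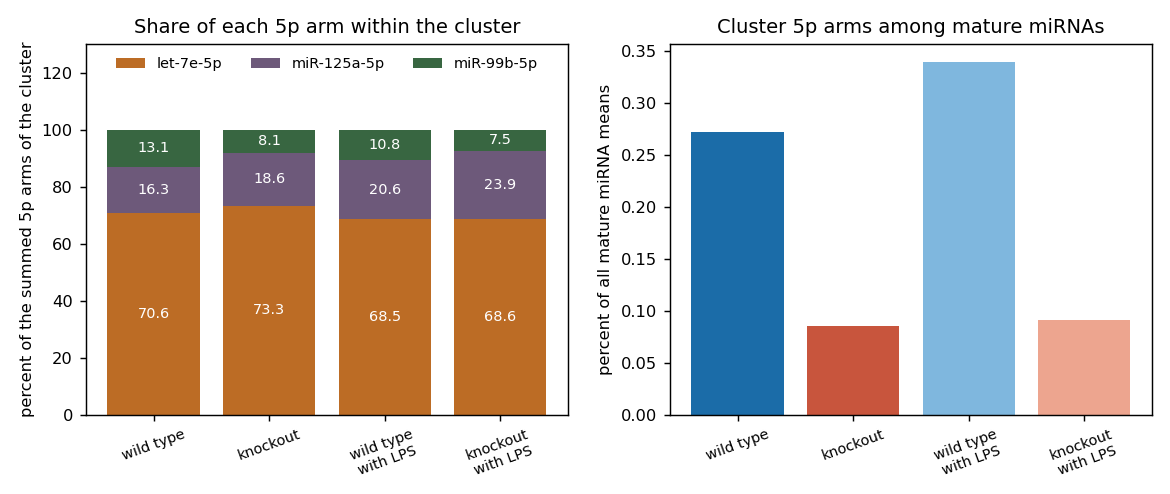
Left, percent of the summed means of the 3 guide arms taken by each in the 4 groups. Right, the summed means as percent of all mature miRNA means, on an axis from 0. let-7e-5p takes 68.5% to 73.3% in all groups, while the sum is 0.272% in wild-type and 0.0857% in knockout cells without LPS, and 0.340% and 0.0909% with LPS, and no bar has an error since each rests on 1 mean per group.

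miR-125a-5p and miR-99b-5p were close in wild-type cells, with a ratio of 1.25 (0.98 to 1.60), whose interval includes equal levels. The ratio was 2.29 (1.39 to 3.77) in 5-LOΔ cells, where the single libraries gave read ratios of 2.67, 1.71 and 2.00, so that all 3 held more miR-125a-5p. With LPS it was 1.90 (1.499 to 2.42) in wild-type cells and 3.18 (1.95 to 5.17) in 5-LOΔ cells. The change with the genotype on the log2 scale was 0.87 (0.07 to 1.68) without and 0.74 (-0.04 to 1.52) with LPS, so only the former left 0 outside its interval. For let-7e-5p over miR-99b-5p it was 0.74 (0.05 to 1.44) without and 0.53 (-0.18 to 1.24) with LPS. Under a pseudocount of 10 this change was nearly gone without LPS and turned direction with it. For let-7e-5p over miR-125a-5p the change with the genotype was -0.13 (-0.65 to 0.39) without and -0.21 (-0.67 to 0.25) with LPS, so no change was detectable between these guides. Between wild-type cells without and with LPS, in tables normalized separately, the log2 ratio for miR-125a-5p over miR-99b-5p was higher with LPS by 0.61 (0.11 to 1.10), and that for let-7e-5p over miR-125a-5p differed by -0.38 (-0.73 to -0.03). In 5-LOΔ cells the same differences were 0.47 (-0.53 to 1.48) and -0.46 (-1.06 to 0.14). These intervals hold no spread between libraries, and a ratio of means also depends on the size factors that weight the libraries. In pooled reads, miR-125a-5p over miR-99b-5p was 1.197 to 1.40 in wild-type cells and 1.12 to 1.74 with LPS over the possible sets of reads, so the higher ratio with LPS does not hold in every set. It was 2.37 in 5-LOΔ cells and 2.87 to 3.39 with LPS, above the wild-type values in each set.

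Of the mature miRNAs with a larger mean of at least 10 normalized counts, the 3 guides had the lowest log2 ratios in both tables, miR-99b-5p first, let-7e-5p next and miR-125a-5p after it. miR-99b-5p reached this level only through its wild-type means, so its place here is a description and supports nothing. Over all mature miRNAs with both means above 0, the guides, in this order, were at positions 2, 12 and 16 of 206 from the lowest without LPS, and at 4, 8 and 9 of 190 with LPS. At this level 2.59% of 116 mature miRNAs were at least 2-fold lower in 5-LOΔ cells without LPS, which were the 3 guides themselves, and 3.67% of 109 with LPS. At least 2-fold higher were 7.76% and 4.59%, with 0 cluster entries or paralogs among them. The lowest ratio of any other was -0.87 without and -1.20 with LPS. Of the 107 that reached this level in both tables, 3 were at least 2-fold lower in both and 0 of these lay outside the cluster. Where all 4 means had to be at 10 or more, 2 of 100 were at least 2-fold lower in both, let-7e-5p and miR-125a-5p.

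**Figure D4:**
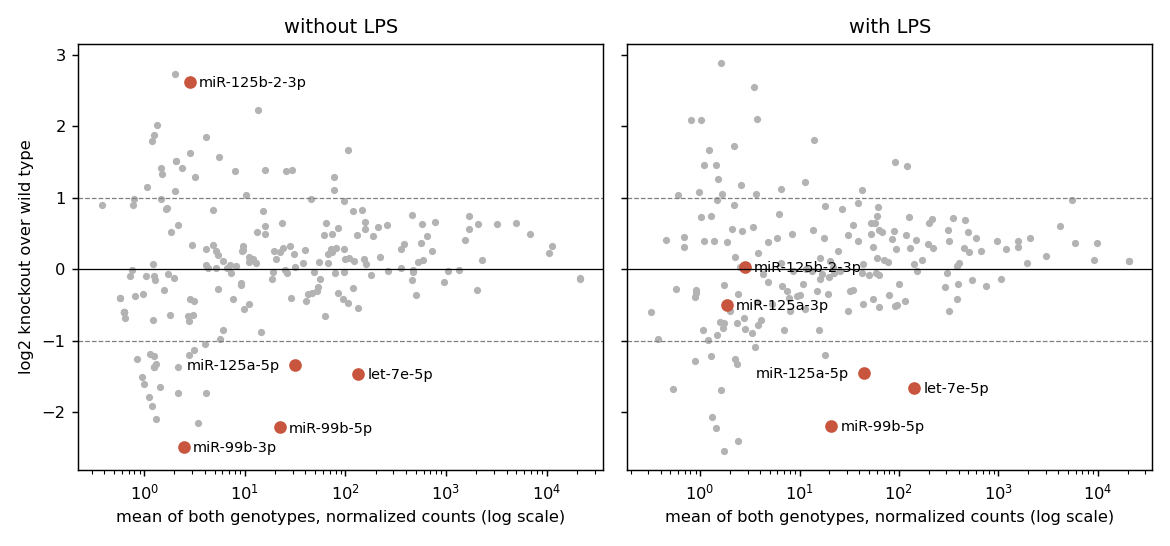
log2 ratio of the knockout to the wild-type mean against the mean of both genotypes in normalized counts (log scale), for mature miRNAs with both means above 0 (206 without LPS, 190 with LPS). Red points are the cluster entries and paralogs, grey points all others, and dashed lines mark 2-fold. Above 10 normalized counts the 3 cluster guides are the lowest points in both panels, while at low means many grey points lie as far from 0. miR-99b-5p lies above 10 only through its wild-type means, so its place is a description and supports nothing.

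The 3 miRNAs outside the cluster whose pair of log2 ratios lay nearest to the cluster's median pair, of 98 with all 4 means at 10 or more, were miR-664a-3p, miR-454-3p and miR-664a-5p. They were still distant. miR-664a-3p had log2 ratios of -0.48 without and -0.51 with LPS, miR-454-3p -0.02 and -1.20, and miR-664a-5p -0.54 and -0.45, against -1.46 and -1.66 for the median of the guides. Likeness was measured over these 2 ratios alone.

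The let-7 family is known for a common seed and overlapping targets. All 8 members other than let-7e, let-7a to let-7d, let-7f, let-7g, let-7i and miR-98, had higher means in 5-LOΔ cells, by log2 ratios of 0.26 to 1.67 without and 0.26 to 1.501 with LPS, although with both genotypes scaled to equal sums of mature miRNAs without miR-3607 only 7 of 8 and 5 of 8 were higher. A higher mean was also the more common direction as deposited, found for 67.2% of the 116 mature miRNAs with a larger mean of at least 10 without LPS and for 61.5% of 109 with LPS. The share of let-7e-5p in the summed family was 1.44% in wild-type cells and 0.361% in 5-LOΔ cells, and 1.82% and 0.434% with LPS, and its place among the 9 by level was 6 in wild-type cells and 8 in 5-LOΔ cells in both tables. Its mean was 5.06% of that of let-7a-5p in wild-type cells and 1.17% in 5-LOΔ cells, and 6.52% and 1.36% with LPS. The mean of let-7a-5p was higher in 5-LOΔ cells where that of let-7e-5p was lower, and the part of reads misassigned between them was not tested. The family summed to 13673 normalized counts in wild-type cells and 19709 in 5-LOΔ cells, and to 11940 and 15862 with LPS.

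The seed families of the other guides consist almost wholly of the cluster member in these cells. miR-99a-5p had 2 reads in 1 library in 5-LOΔ cells and in wild-type cells with LPS, and was listed at 0 in the remaining groups. The seed ACCCGUA thus had a summed mean of 36.5 normalized counts in wild-type cells and 8.38 in 5-LOΔ cells, and 34.7 and 7.55 with LPS. miR-125b-5p was listed with LPS only, with 2 reads in 1 wild-type library. The seed CCCUGAG summed to 45.5 and 18.05 normalized counts without LPS, and to 66.0 and 24.0 with it. miR-10a and miR-10b, relatives of the miR-99 family, were not listed. Neither paralog guide exceeded 2 reads in any group.

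miR-125b-2-3p was the exception among the paralogs, and it comes from the hairpin whose guide arm was hardly seen. Without LPS the wild-type libraries held 2.40, 0 and 0 normalized counts (3 reads in all) and the 5-LOΔ libraries 6.74, 5.29 and 2.76 (9, 5 and 2 reads). All 3 knockout libraries lay above all wild-type libraries (exact permutation test, p = 0.1, the smallest possible), and 13.7% of 124 mature miRNAs had no overlap in one direction or the other. The log2 ratio was 2.62, with an exact counting interval from 0.68 to 4.90 for the pooled reads.

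With LPS, where 5.66% of the 106 mature miRNAs with a settled overlap had none, the libraries of miR-125b-2-3p overlapped, at 3.49, 1.87 and 3.01 normalized counts in wild-type cells and 6.15, 2.40 and 0 in 5-LOΔ cells. The log2 ratio was 0.03 (pooled reads -1.19 to 1.65), which became -1.22 without the 5-LOΔ library of 6.15 and 0.62 without the 5-LOΔ library at 0. The ratios without and with LPS differed by -2.59 (-4.99 to -0.19), an interval that holds counting error only. The guide arm of the same locus, miR-125b-5p, was not listed without LPS and had at most 2 reads in a group with it, so the 3p arm was the main product seen from this hairpin. let-7c, which has its hairpin in the same chromosome 21 locus, was at 30.6 normalized counts in wild-type cells and 60.1 in 5-LOΔ cells (log2 ratio 0.98), and at 26.7 and 50.9 with LPS (0.93).

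Other hairpin clusters with several members were set beside this one. In the miR-17-92 cluster, known for promoting proliferation, the 6 arms examined had a median log2 ratio of 0.07 (-0.41 to 0.37 from lowest to highest) without and -0.19 (-0.53 to 0.37) with LPS, and 0 of 6 were 2-fold lower. In the related cluster of miR-106b, miR-93 and miR-25 the median was 0.46 (0.30 to 0.76) without and 0.30 (-0.06 to 0.39) with LPS. The 3 guides of miR-99b, let-7e and miR-125a had medians of -1.46 and -1.66, and their ratios spanned 0.87 and 0.74, against 0.78 and 0.89 in miR-17-92.

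**Figure D5:**
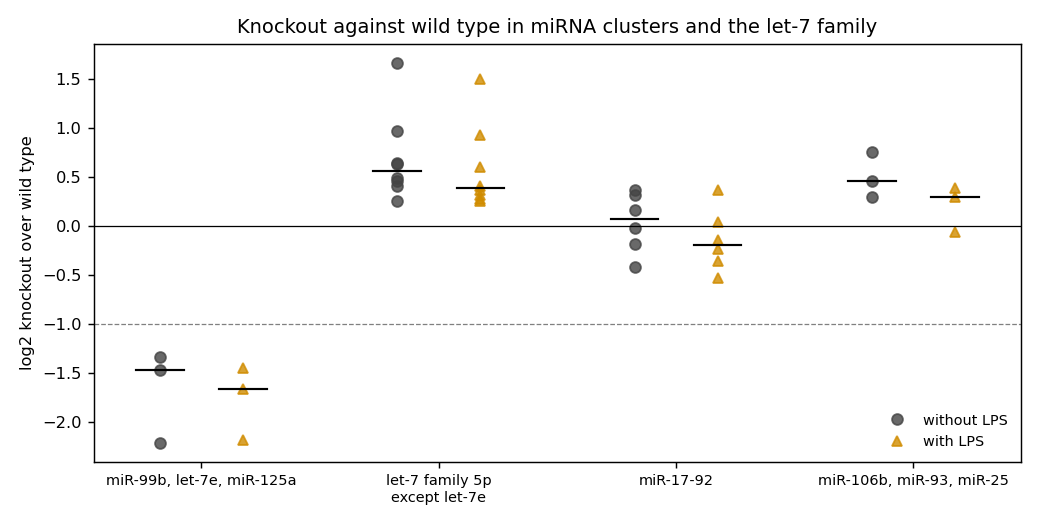
log2 ratio of the knockout to the wild-type mean for the guides of the cluster, the 8 other let-7 family members, 6 arms of miR-17-92 and 3 of the miR-106b cluster, without LPS (circles) and with LPS (triangles). Short lines are medians and the dashed line marks 2-fold lower. The cluster's 3 guides lie between -2.21 and -1.34 without LPS and between -2.19 and -1.45 with it, the let-7 relatives all lie above 0 as deposited (7 of 8 without and 5 of 8 with LPS once scaled to equal mature sums without miR-3607), and the other clusters lie between -0.53 and 0.76.

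The difference between the genotypes was not distinguishable without and with LPS for the guides within counting error, with the log2 ratio with LPS minus that without at 0.02 (-0.92 to 0.96) for miR-99b-5p, -0.11 (-0.72 to 0.50) for miR-125a-5p and -0.19 (-0.52 to 0.13) for let-7e-5p.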

How the data were processed

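Small RNA libraries were made by the authors with a Lexogen kit, size-selected, trimmed and annotated with omiRas against hg19, the build also named in the submitters' processing notes. Not given in the sources used here were its version, its aligner, how many mismatches it allowed and how it scaled the counts. The deposited signal columns hold the authors' mean of normalized counts of each genotype, in 1 table without and 1 with LPS. The 3 further columns of each table (the authors' fold change, p-value and FDR) were not used.

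Log2 ratios of the means were computed with no pseudocount. Counting errors came from size factors recovered from means of at most 10. Reads per library were recovered as whole numbers compatible with the 6 printed digits and with the precursor entry. In simulated tables the true reads were among the solutions for 100% of 60 values of 10 to 40 in each group, and single solutions were right in 100%. A single solution was found for 16.7% to 91.7% of these values over the groups, and for 50% to 95% where a precursor entry was used as well. Means above 40, such as those of miR-125a-5p in wild-type cells, were not checked in this way. Counting intervals covered the true change in 90.9% to 95.6% of the 33 to 47 RNAs changed by each of 4 simulated folds in the table without LPS (1231 RNAs), and in 94.5% to 97.6% of 38 to 55 with LPS (1139 RNAs). The simulated libraries of a group differed by the sampling of reads only. This coverage therefore checks the counting error and does not hold for real libraries, which also vary among themselves.

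The samples were grouped by the genotype and treatment in their labels, with 3 libraries in each group. Depth is known only as relative size factors. No model across genes could be fitted to means, and p-values come from exact permutation over recovered libraries.

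All entries of the named hairpins were described, with the let-7 relatives, 2 other clusters and the 3 miRNAs nearest in pattern. Members and lists were chosen with earlier results of these data known. Alternatives were other scalings, pseudocounts of 0.1, 1 and 10, minimum means, folds of 1.5 and 3, ranks without miR-3607, and leaving out each library. Scripts ran in Python 3.11.15 with scipy 1.17.1, numpy 2.4.6, pandas 2.3.3 and, for plots, matplotlib 3.10.9.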

Additional observations from a re-analysis of the deposited data

How the results depend on the processing

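Over 220 recomputed values of 61 results, 192 stayed within the error of the value reported and 28 moved, with no change of direction in the 3 guides. Some alternatives could hardly move a value, such as the precursor entry less the 5p arm, which restates the 3p arm. The tally is therefore no measure of robustness. Scaling both genotypes to equal sums or to a median ratio of 0 shifted every log2 ratio by -0.33 to -0.15 without LPS and by -0.33 to -0.07 with LPS. let-7e-5p then moved from -1.46 to -1.79 without LPS under equal mature sums without the abundant miR-3607 arms, and from -1.66 to -1.90 with LPS under equal mature sums and to -1.98 without miR-3607. A pseudocount of 10 moved miR-99b-5p to -1.38 without and -1.34 with LPS, and without LPS it moved miR-125b-2-3p from 2.62 to 0.47. Within their wider errors, miR-99b-3p then had -0.40 in place of -2.48 and miR-125a-5p -0.99, both under 2-fold. With this pseudocount, let-7e-5p over miR-99b-5p came to 4.45 in wild-type cells and 4.54 in 5-LOΔ cells, and 5.12 and 4.49 with LPS, so the difference between the genotypes in this ratio was nearly gone without LPS and turned direction with LPS. The number of entries lower without LPS was 2 at 3-fold in place of 4, and the number higher was 0 in place of 1 where a mean of at least 10 was required. With libraries left out in turn, miR-125a-5p without LPS ran from -2.32 to -0.91, and miR-99b-5p from -2.84 to -1.80 without and from -2.43 to -1.81 with LPS. For let-7e-5p, and for miR-125a-5p with LPS and among the wild-type libraries, no library could be left out because the reads had several solutions. The cause of these moves was not tested. No paired analysis was possible because the deposited columns and recovered libraries carry no replicate number. Shares of the mature sum were 1.56 to 1.77 times higher without miR-3607. Over a group, 3 reads give a mean of 0.868 to 1.02, and depth limits above all let-7e-3p, miR-125a-3p, miR-99a-5p and miR-125b-5p, which had at most 8 reads in a group.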
